A study of Mus musculus with 9 samples.

Results

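Calcium entry, calcineurin and the NFAT transcription factors form the route by which a T cell receptor signal reaches NFAT target genes, and 9 genes of that route are described here, chosen by symbol. They are Stim1 and Orai1, Ppp3ca and Ppp3cb, Rcan1, and Nfatc1, Nfatc2, Nfatc3 and Nfat5, 9 of the 24594 genes in the expression table. All 9 passed the filter on low values described below. Bulk RNA sequencing was performed on 9 libraries of thymocytes carrying the OT-II transgene, a T cell receptor that recognizes an ovalbumin peptide. The cells were CD4 single-positive thymocytes sorted as CD4+ CD8- CD69+ Valpha2+ VBeta5+ from mixed bone marrow chimeras, 4.7 weeks after irradiated hosts had received marrow of 3 congenic donors, 1 of them a non-transgenic wild-type donor. The comparison of hosts asks how these cells respond to a thymic self-antigen, and the comparison of donors asks which responses differ without Nr4a1 and Nr4a3.

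OT-II control donors were Nr4a1+/+ Nr4a3+/+ and were bred as an F1 of BoyJ and B6.Cg-Tg(TcraTcrb)425Cbn/J. Donors labelled as double knockout (DKO) were Nr4a1-/- Nr4a3-/- with the same transgene, on C57BL/6. Genotype and donor background therefore cannot be told apart. By the sample labels, WT hosts were BoyJ. RIPmOVA hosts were an F1 of BoyJ and a transgenic strain on C57BL/6, in which the rat insulin promoter drives membrane ovalbumin, expressed in the thymus by medullary epithelial cells. By these labels alone, the antigen and the host background cannot be told apart either. The study's methods instead describe RIPmOVA and WT mice as F1 progeny of the same crosses, of RIP.mOVA with BoyJ. By the methods the hosts would thus share a background, and the sources used here differ on this point. Host ages were not given in the sources used here. There were n = 2 OT-II libraries from WT hosts, n = 3 DKO-labelled libraries from WT hosts, n = 2 OT-II libraries from RIPmOVA hosts and n = 2 DKO-labelled libraries from RIPmOVA hosts. Libraries of both genotypes with the same number in a host came from the same chimera. In bulk samples, fewer cells of a type and less RNA per cell cannot be told apart.

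T cell receptor signalling releases calcium from the endoplasmic reticulum. STIM1 senses the emptied store and opens ORAI1 channels in the plasma membrane, and the calcium that enters activates the phosphatase calcineurin through calmodulin. Calcineurin removes phosphates from NFATc proteins, which then move to the nucleus and act with partners such as AP-1, while RCAN1 binds and restrains calcineurin. This control is exerted largely on protein activity and location, which RNA levels do not measure.

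Levels are given as RPKM, reads scaled to the length of a gene's exons and to library size. Differences are log2 fold changes of RPKM + 0.5 with their SE and 95% interval, fitted by limma over all 9 libraries, with p values adjusted by Benjamini and Hochberg over the 11569 genes that reached RPKM 1 in at least 2 libraries. Called genes had both an adjusted p up to 0.05 and a log2 fold change of 1 or more in size. Depth recovered from the RPKM steps was 15520000 to 25050000 reads per library. In RIPmOVA hosts Nr4a1 was 229 to 260 RPKM for OT-II and 235 to 282 RPKM for DKO-labelled libraries, and Nr4a3 was 3.72 to 5.66 RPKM for OT-II and 14.1 to 16.5 RPKM for DKO-labelled libraries. Gene-level RPKM of the targeted genes was thus not lower in the libraries labelled DKO, and that of Nr4a3 was higher. Gene-level RPKM does not tell RNA of a disrupted allele from that of an intact one, so the label was not tested by it. The CD4 single-positive markers Cd4 and Cd3e were present in every library, at 189 to 241 RPKM for Cd4, and Cd8a was at most 7.60 RPKM, whereas Cd8b1 was 54.5 to 96.4 RPKM. Reads on 1461 sensory receptor genes, which thymocytes are not expected to use, were 1043 and 1484 RPM (reads scaled to library size alone) in DKO-labelled libraries from RIPmOVA hosts, against 552 and 293 RPM in OT-II libraries from those hosts. In WT hosts they were 1135 and 513 RPM for OT-II and 505, 1045 and 414 RPM for DKO-labelled libraries. The background was highest in the second DKO-labelled library from RIPmOVA hosts, and results of the 9 genes that it touches are given with it as a covariate.

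The start regions used here, from RefSeq (GRCm38.p6), were those of 7 of the 9 genes: Stim1, Orai1, Ppp3cb, Rcan1, Nfatc2, Nfatc3 and Nfat5. Those of Nfatc1 and Ppp3ca were not analysed here. Those of Rcan1, with its 2 starts, and of Orai1 and Nfatc3, whose levels differed between hosts by adjusted p, are shown 5′ to 3′ on the gene's strand, up to 250 bases before the start and outside annotated exons. Capitals mark GGAAA or its reverse complement TTTCC, the core that NFAT proteins bind, and TGANTCA, the AP-1 motif, searched on both strands with no overlap between the 2 motifs in these windows.

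Rcan1, start further inside the gene, chr16:92400079-92400328, minus strand: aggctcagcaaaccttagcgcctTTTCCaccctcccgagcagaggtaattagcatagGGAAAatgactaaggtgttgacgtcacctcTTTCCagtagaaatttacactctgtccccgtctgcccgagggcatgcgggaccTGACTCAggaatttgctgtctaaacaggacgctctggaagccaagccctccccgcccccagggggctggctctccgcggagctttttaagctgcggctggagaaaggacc

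Rcan1, start further upstream, chr16:92466170-92466419, minus strand: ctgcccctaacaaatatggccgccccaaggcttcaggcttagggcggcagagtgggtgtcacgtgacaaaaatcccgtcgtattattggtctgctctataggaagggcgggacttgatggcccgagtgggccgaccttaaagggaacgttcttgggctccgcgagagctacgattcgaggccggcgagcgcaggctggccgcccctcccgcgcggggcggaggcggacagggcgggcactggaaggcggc

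Orai1, chr5:123014824-123014994, plus strand: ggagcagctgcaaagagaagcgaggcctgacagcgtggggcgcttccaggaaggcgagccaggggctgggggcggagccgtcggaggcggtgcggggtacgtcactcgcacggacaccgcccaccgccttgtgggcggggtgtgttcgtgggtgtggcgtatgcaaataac

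Nfatc3, first start, chr8:106058568-106058817, plus strand: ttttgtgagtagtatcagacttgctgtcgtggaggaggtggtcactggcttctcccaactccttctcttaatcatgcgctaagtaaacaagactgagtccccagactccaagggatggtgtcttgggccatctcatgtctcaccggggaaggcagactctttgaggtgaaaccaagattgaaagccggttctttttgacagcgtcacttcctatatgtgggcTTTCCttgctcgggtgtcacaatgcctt

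Nfatc3, other start, chr8:106059340-106059589, plus strand: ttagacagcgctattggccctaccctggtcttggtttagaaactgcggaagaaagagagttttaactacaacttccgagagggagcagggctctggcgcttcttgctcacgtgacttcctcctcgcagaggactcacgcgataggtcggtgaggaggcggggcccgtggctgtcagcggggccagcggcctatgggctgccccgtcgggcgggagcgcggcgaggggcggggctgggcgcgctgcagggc

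The inner Rcan1 window held 3 NFAT cores and 1 AP-1 motif, and the upstream Rcan1 window held 0 of either. Of 32851 such windows of 250 bases over all genes, 55.6% held at least 1 NFAT core, 6.39% held at least 3, and 6.75% held an AP-1 motif. The first Nfatc3 window held 1 core, and the other Nfatc3 window and the Orai1 window, of 171 bases, held 0. AAAGGTCA, the element that NR4A monomers bind, was found in 1.34% of all windows and in 0 windows of these genes. A match is a description of the letters and not a bound site.

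**Figure D1:**
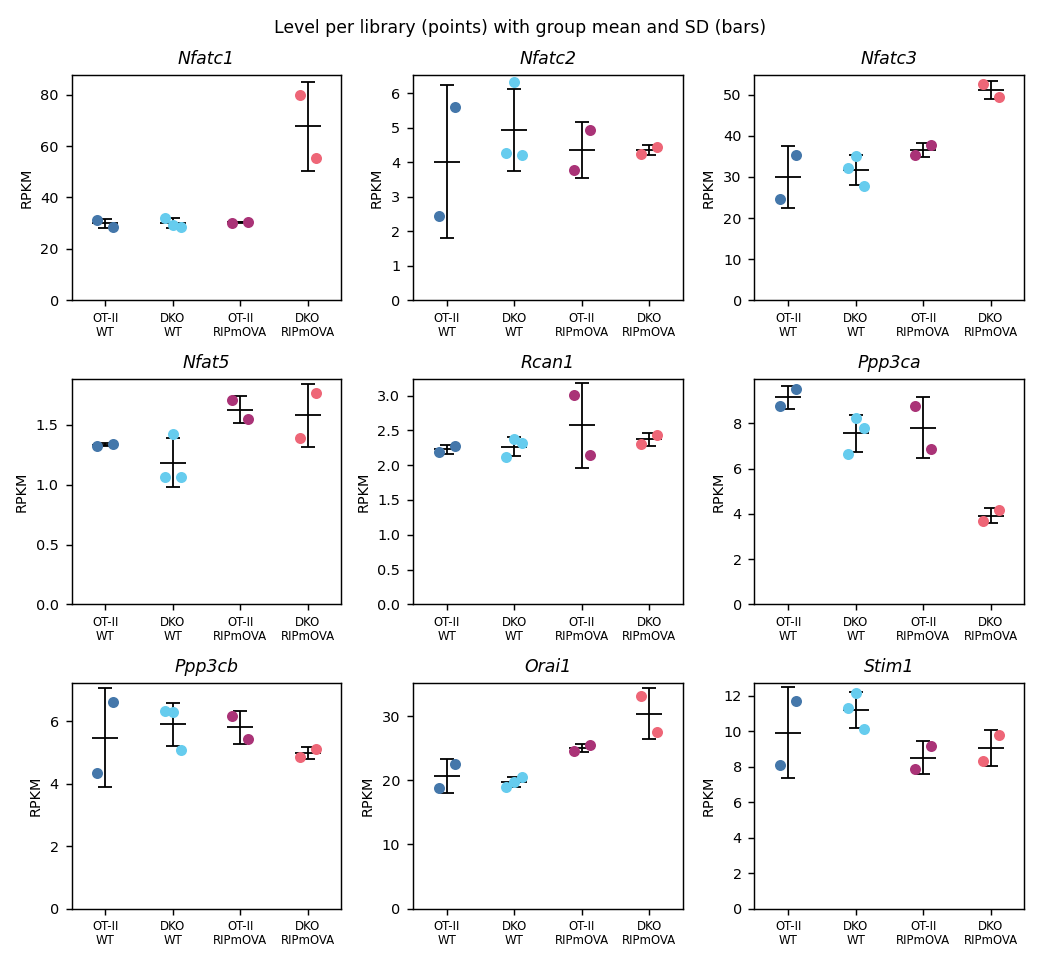
RPKM of each of the 9 genes (vertical axis, from 0, each panel with its own scale) in the 4 groups of genotype and host; each point is 1 library and the bars give the group mean and SD. Nfatc1 lies at 28.6 to 32.1 RPKM in 7 libraries and at 80.0 and 55.5 RPKM in the 2 DKO-labelled libraries from RIPmOVA hosts, where Ppp3ca is lowest.

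Nfatc1 was the gene with the largest difference of the 9, and its mean in DKO-labelled cells from RIPmOVA hosts was 2.26 times that of DKO-labelled cells from WT hosts and 2.23 times that of OT-II cells from RIPmOVA hosts. In those same libraries Ppp3ca, a catalytic subunit of calcineurin, was at 0.519 and 0.502 of the same means, and Nfatc3 and Orai1 were at 1.61 and 1.54 times their means in DKO-labelled cells from WT hosts. In OT-II control cells none of the 9 genes passed the test between hosts. Stim1, Ppp3cb, Rcan1, Nfatc2 and Nfat5 passed it in no comparison.

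Among the genes of calcium entry, Stim1 (chromosome 7, 102267806 to 102437319, GRCm38) encodes the calcium sensor of the endoplasmic reticulum. Its level was 8.12 and 11.7 RPKM in OT-II cells from WT hosts, 11.3, 12.2 and 10.1 RPKM in DKO-labelled cells from WT hosts, 7.86 and 9.16 RPKM in OT-II cells from RIPmOVA hosts, and 8.33 and 9.78 RPKM in DKO-labelled cells from RIPmOVA hosts. The OT-II libraries of both hosts overlapped, whereas both DKO-labelled libraries from RIPmOVA hosts lay below all 3 from WT hosts. The host difference in DKO-labelled cells was -0.29 (SE 0.16, 95% interval -0.65 to 0.07, adjusted p = 0.36).

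Orai1 (chromosome 5, 123015074 to 123030456) encodes the channel that STIM1 opens. Its level was 18.8 and 22.5 RPKM in OT-II and 18.9, 19.8 and 20.5 RPKM in DKO-labelled cells from WT hosts. In RIPmOVA hosts it was 24.6 and 25.5 RPKM in OT-II and 33.2 and 27.6 RPKM in DKO-labelled cells. All libraries from RIPmOVA hosts were thus higher than all libraries from WT hosts, and the genotypes overlapped in WT hosts only. The host difference was 0.61 in DKO-labelled cells (SE 0.11, 95% interval 0.36 to 0.85, adjusted p = 0.020) and 0.28 in OT-II cells (SE 0.12, 95% interval 0.01 to 0.55, adjusted p = 0.34, unadjusted p = 0.046). The first passed the adjusted p without reaching the fold limit. It held in 6 of 9 fits that left out 1 library and in 9 of 13 other settings. Among the losses were those with the sensory receptor covariate (0.72, adjusted p = 0.060) and without the first DKO-labelled library from RIPmOVA hosts (0.47, adjusted p = 0.19). The difference between both host effects did not pass the test (0.33, SE 0.16, adjusted p = 0.55).

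Ppp3ca and Ppp3cb encode alternative catalytic subunits of calcineurin. Ppp3ca (chromosome 3, 136670124 to 136937727) was 8.78 and 9.52 RPKM in OT-II and 6.65, 8.24 and 7.81 RPKM in DKO-labelled cells from WT hosts. In RIPmOVA hosts it was 8.75 and 6.87 RPKM in OT-II and 3.68 and 4.16 RPKM in DKO-labelled cells. The last 2 libraries were lower than all 7 others. Ppp3ca was also lower without overlap between hosts in OT-II cells (-0.22, SE 0.15, adjusted p = 0.56). The same held between genotypes in WT hosts (-0.26, SE 0.14, adjusted p = 0.70). The difference between the host effects of both genotypes did not pass the test (-0.64, SE 0.20, adjusted p = 0.46). Ppp3ca fell by 0.86 between hosts in DKO-labelled cells (SE 0.14, 95% interval -1.17 to -0.56, adjusted p = 0.011) and was lower by genotype in RIPmOVA hosts with a log2 fold change of -0.90 (SE 0.15, 95% interval -1.24 to -0.57, adjusted p = 0.018). Both missed the fold limit. The host difference passed the adjusted p in 7 of 9 fits that left out 1 library and 11 of 13 other settings, and the genotype difference in 6 of 9 and 8 of 12. With the chimera as a block the genotype difference was again -0.90 with an adjusted p of 0.054, and with the sensory receptor covariate it was -1.08 with an adjusted p of 0.16. Without the first DKO-labelled library from RIPmOVA hosts, the host difference was -0.78 (adjusted p = 0.10).

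Ppp3cb (chromosome 14, 20499364 to 20546573) was 4.34 and 6.59 RPKM in OT-II and 6.31, 6.28 and 5.09 RPKM in DKO-labelled cells from WT hosts, and 6.17 and 5.41 RPKM in OT-II and 4.84 and 5.11 RPKM in DKO-labelled cells from RIPmOVA hosts. The groups lay close together, and only the 2 genotypes in RIPmOVA hosts did not overlap. The difference between those genotypes was -0.20 (SE 0.19, 95% interval -0.62 to 0.22, adjusted p = 0.57).

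Per length, Ppp3ca made up 66.9% and 59.1% of the summed RPKM of both genes in OT-II cells from WT hosts, and 51.3%, 56.8% and 60.6% in the DKO-labelled libraries of these hosts. In RIPmOVA hosts the share was 58.6% and 55.9% for OT-II and 43.2% and 44.9% for DKO-labelled cells, so Ppp3cb exceeded Ppp3ca in the last group only. This share was chosen as a description after the values were seen. It leaves out Ppp3cc, another catalytic subunit, which was 9.87 and 9.36 RPKM in DKO-labelled cells from RIPmOVA hosts. By mean RPKM, Ppp3cc exceeded both Ppp3ca and Ppp3cb in every group.

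Rcan1 (chromosome 16, 92391953 to 92470867), the inhibitor of calcineurin, was 2.18 and 2.28 RPKM in OT-II and 2.11, 2.37 and 2.31 RPKM in DKO-labelled cells from WT hosts. In RIPmOVA hosts it was 3.00 and 2.14 RPKM in OT-II and 2.31 and 2.44 RPKM in DKO-labelled cells. The first OT-II library from RIPmOVA hosts stood above the rest, and the groups overlapped in all 4 comparisons. The host difference was 0.16 in OT-II (SE 0.18, 95% interval -0.24 to 0.56, adjusted p = 0.75) and 0.06 in DKO-labelled cells (SE 0.16, 95% interval -0.31 to 0.42, adjusted p = 0.88), with the inner start window above as the one that holds NFAT cores. Gene-level RPKM sums both starts, so their use was not measured.

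**Figure D2:**
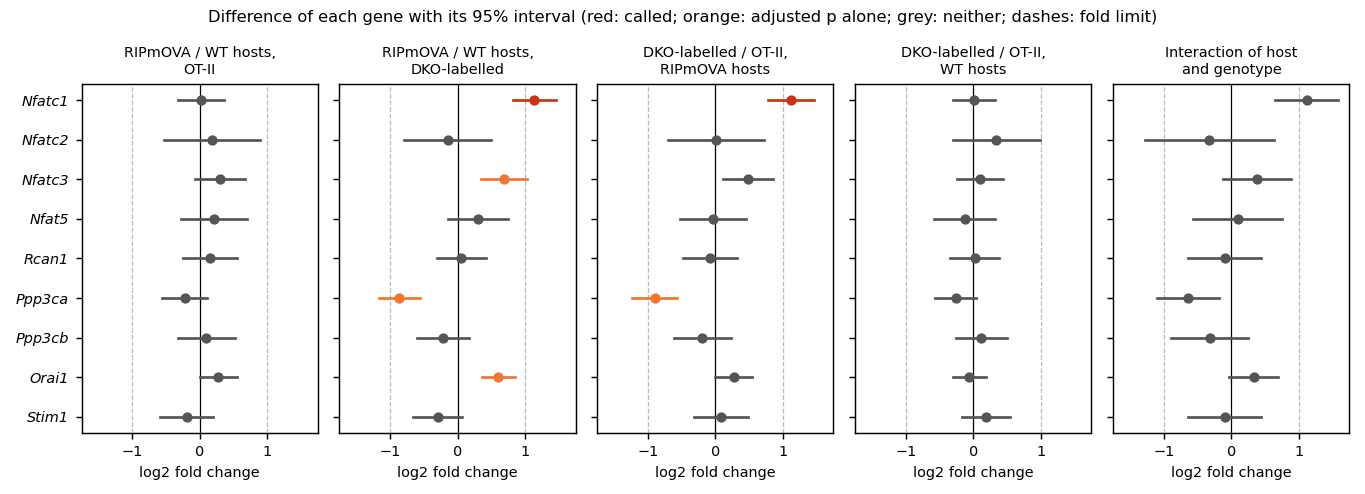
Log2 fold change of RPKM + 0.5 (horizontal axis) with its 95% interval for the 9 genes in the 4 comparisons and the interaction; red marks called genes, orange those with an adjusted p of 0.05 or less below the fold limit, and dashed lines the fold limit of 1. Nfatc1 is the called gene, at 1.14 and 1.12, and Ppp3ca lies at -0.86 and -0.90 in the same comparisons.

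Nfatc1 (chromosome 18, 80606205 to 80713071), an NFAT factor that calcineurin activates, was 31.1 and 28.6 RPKM in OT-II and 32.1, 29.4 and 28.6 RPKM in DKO-labelled cells from WT hosts. In RIPmOVA hosts it was 30.1 and 30.5 RPKM in OT-II and 80.0 and 55.5 RPKM in DKO-labelled cells. The first 3 groups overlapped, and both libraries of the last group were higher than all others, at different levels. The host difference in DKO-labelled cells was 1.14 (SE 0.14, 95% interval 0.83 to 1.45, adjusted p = 0.0032), and the genotype difference in RIPmOVA hosts was 1.12 (SE 0.15, 95% interval 0.78 to 1.47, adjusted p = 0.0084). These comparisons share the DKO-labelled libraries from RIPmOVA hosts. The host difference in OT-II cells was 0.02 (95% interval -0.32 to 0.37) and the genotype difference in WT hosts 0.01 (95% interval -0.31 to 0.32).

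The difference between the host effects on Nfatc1 in DKO-labelled and OT-II cells was 1.12 (SE 0.21, 95% interval 0.65 to 1.58) with an adjusted p of 0.17 over all genes and an unadjusted p of 0.00041, so it did not pass the test. The size of the Nfatc1 difference rested in part on the first DKO-labelled library from RIPmOVA hosts. Without it the host difference was 0.88 (adjusted p = 0.0095) and the genotype difference 0.86 (adjusted p = 0.017), both below the fold limit. Without either OT-II library from RIPmOVA hosts the genotype difference was 1.11 (adjusted p = 0.084) or 1.13 (adjusted p = 0.073). With the sensory receptor covariate it was 1.19 (adjusted p = 0.16), and the host difference was 1.18 (adjusted p = 0.035).

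Nfatc2 (chromosome 2, 168476410 to 168601657), another calcineurin-dependent factor, was 2.45 and 5.58 RPKM in OT-II and 4.28, 6.31 and 4.22 RPKM in DKO-labelled cells from WT hosts, and 3.77 and 4.92 RPKM in OT-II and 4.25 and 4.44 RPKM in DKO-labelled cells from RIPmOVA hosts. The groups overlapped in all 4 comparisons, and the OT-II libraries from WT hosts were furthest apart. The host difference in DKO-labelled cells was -0.14 (SE 0.29, 95% interval -0.79 to 0.50, adjusted p = 0.81).

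Nfatc3 (chromosome 8, 106058840 to 106130537), the third calcineurin-dependent factor described, was 24.7 and 35.3 RPKM in OT-II and 32.3, 35.1 and 27.8 RPKM in DKO-labelled cells from WT hosts. In RIPmOVA hosts it was 35.3 and 37.9 RPKM in OT-II and 52.8 and 49.6 RPKM in DKO-labelled cells. Both libraries of the last group were higher than all others. OT-II libraries from RIPmOVA hosts were also higher than those from WT hosts without overlap (0.30, SE 0.16, adjusted p = 0.46). The difference between the host effects of both genotypes did not pass the test (0.38, SE 0.22, adjusted p = 0.57). The host difference was 0.69 in DKO-labelled cells (SE 0.15, 95% interval 0.35 to 1.03, adjusted p = 0.043), and the genotype difference in RIPmOVA hosts was 0.48 (SE 0.16, 95% interval 0.11 to 0.85, adjusted p = 0.15). The host difference passed the adjusted p in 3 of 9 fits that left out 1 library and in 8 of 13 other settings, always in the same direction. Its adjusted p reached 0.28 without the first DKO-labelled library from RIPmOVA hosts and 0.19 with the sensory receptor covariate.

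Nfat5 (chromosome 8, 107293470 to 107379517), a relative that responds to osmotic stress and is not controlled by calcineurin, was 1.32 and 1.34 RPKM in OT-II and 1.06, 1.42 and 1.07 RPKM in DKO-labelled cells from WT hosts, and 1.71 and 1.55 RPKM in OT-II and 1.39 and 1.77 RPKM in DKO-labelled cells from RIPmOVA hosts. OT-II libraries from RIPmOVA hosts were higher than those from WT hosts without overlap, and the DKO-labelled groups overlapped. The host difference was 0.21 in OT-II (SE 0.22, 95% interval -0.28 to 0.70, adjusted p = 0.71) and 0.30 in DKO-labelled cells (SE 0.20, 95% interval -0.14 to 0.75, adjusted p = 0.43).

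Nfatc1, Nfatc2 and Nfatc3 summed to 58.2 to 73.3 RPKM in the 7 other libraries and to 137 and 110 RPKM in DKO-labelled cells from RIPmOVA hosts. Nfatc1 made up 58.4% and 50.7% of that sum there. Its share was 53.4% in the first OT-II library from WT hosts, so the shares overlapped although the levels did not. Orai1 was 1.62 to 2.32 times Stim1 in the libraries from WT hosts and 2.79 to 3.99 times Stim1 in those from RIPmOVA hosts of either genotype. These sums and ratios were chosen after the values were seen and have no test.

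**Figure D3:**
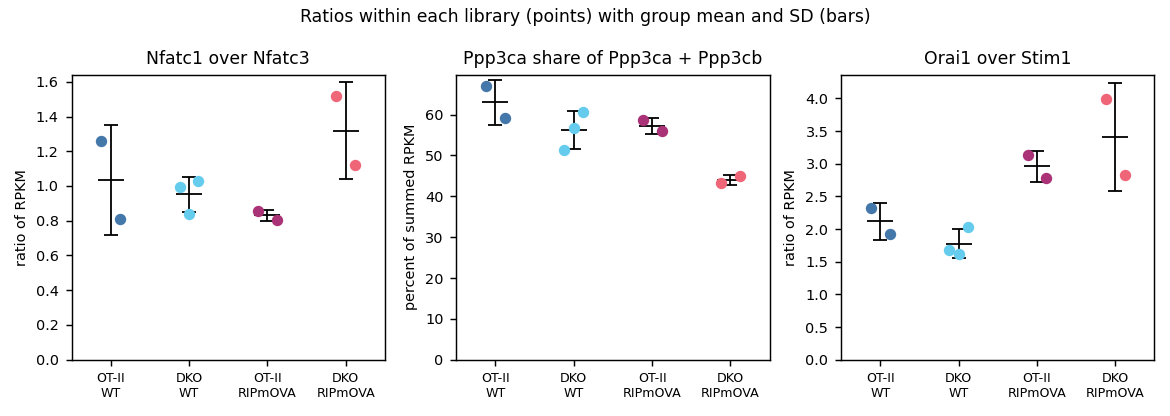
Ratios of RPKM within each library in the 4 groups: Nfatc1 over Nfatc3, the percentage of Ppp3ca in the sum of Ppp3ca and Ppp3cb, and Orai1 over Stim1 (vertical axes from 0; points are libraries, bars the mean and SD). The Ppp3ca share is 43.2% and 44.9% in the DKO-labelled libraries from RIPmOVA hosts and 51.3% or more elsewhere, and Nfatc1 over Nfatc3 overlaps between groups.

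By mean level per length, Nfatc3, Nfatc1, Orai1, Stim1, Ppp3ca, Ppp3cb, Nfatc2, Rcan1 and Nfat5 followed each other from high to low in the first 3 groups. In OT-II cells from WT hosts, Nfatc3 and Nfatc1, Stim1 and Ppp3ca, and Ppp3cb and Nfatc2 overlapped. In DKO-labelled cells from WT hosts, Nfatc3 and Nfatc1 overlapped, as did Ppp3cb and Nfatc2, and in OT-II cells from RIPmOVA hosts only Stim1 and Ppp3ca did. In DKO-labelled cells from RIPmOVA hosts Nfatc1 came first, at 67.7 ± 17.3 RPKM (SD, n = 2), ahead of Nfatc3 at 51.2 ± 2.24 RPKM (SD, n = 2), and Ppp3ca came after Ppp3cb and Nfatc2, with no overlap between neighbours.

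In the host comparison of OT-II cells 0 of the 9 genes were called, against 1.23% of all genes tested, and 0 had an adjusted p of 0.05 or less, against 1.89%, with 1 at an unadjusted p below 0.05, against 14.3%. In the host comparison of DKO-labelled cells 1 of 9 was called, against 1.68%, and 4 of 9 passed the adjusted p alone, against 3.35%, 3 of them higher, against 2.32%, and 1 lower, against 1.03%. Between genotypes in RIPmOVA hosts 1 of 9 was called, against 1.07%, and 2 of 9 passed the adjusted p alone, against 2.21%. Between genotypes in WT hosts 0 of 9 were called, against 0.0605%, 0 passed the adjusted p alone, against 0.0692%, and 0 had an unadjusted p below 0.05, against 7.89%. For the interaction 0 were called or passed the adjusted p alone, against 0.0173%, and 2 had an unadjusted p below 0.05, against 9.32%.

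Groups were free of overlap between their libraries for 4 of 9 genes between hosts in OT-II cells, 5 in DKO-labelled cells, 5 between the genotypes of RIPmOVA hosts and 1 between those of WT hosts. The shares over all genes were 41.6%, 40.0%, 59.0% and 20.8%, so those counts were near the background. Between hosts, the 9 genes had a median log2 fold change of 0.16 for OT-II and 0.06 for DKO-labelled cells, against -0.02 and 0.03 over all genes.

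**Figure D4:**
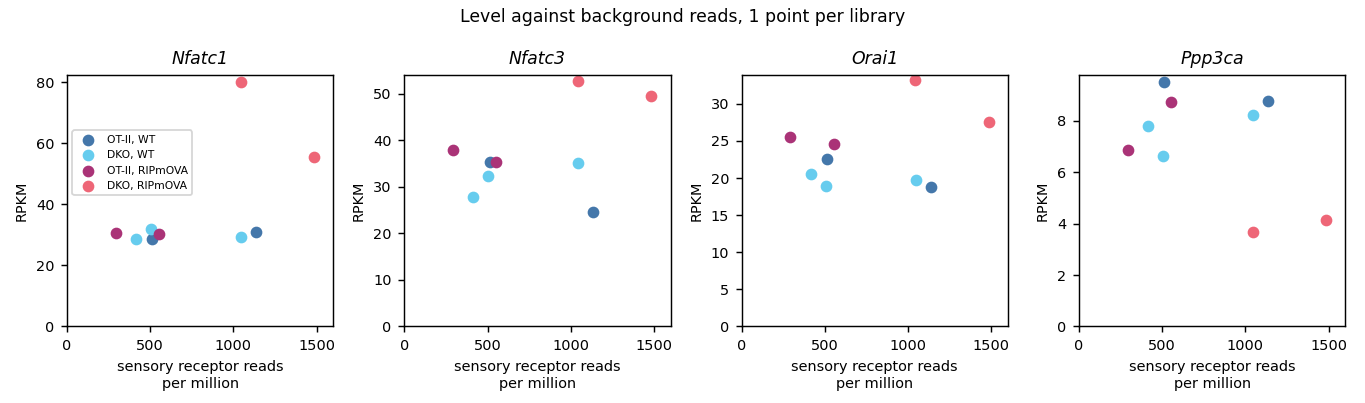
RPKM of Nfatc1, Nfatc3, Orai1 and Ppp3ca (vertical axes, from 0) against reads on sensory receptor genes in RPM (horizontal axis), 1 point per library, coloured by group. The 2 WT-host libraries at 1045 and 1135 RPM have Nfatc1 at 29.4 and 31.1 RPKM, and at 1043 and 1484 RPM the DKO-labelled cells from RIPmOVA hosts have it at 80.0 and 55.5 RPKM.

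Sensory receptor reads were higher in DKO-labelled than in OT-II libraries from RIPmOVA hosts, as was Nfatc1, whereas Ppp3ca was lower. The WT-host libraries with most of these reads, the first OT-II and the second DKO-labelled library at 1135 and 1045 RPM, had Nfatc1 at 31.1 and 29.4 RPKM and Ppp3ca at 8.78 and 8.24 RPKM. Nfatc3 was 24.7 and 35.1 RPKM and Orai1 18.8 and 19.8 RPKM in the same libraries. The 1484 RPM of the second DKO-labelled library from RIPmOVA hosts had no counterpart in WT hosts. The 3 thymic epithelial markers summed to 6.89 to 10.8 RPKM in DKO-labelled and 4.85 to 6.53 RPKM in OT-II libraries from RIPmOVA hosts. Most of that was Epcam, which overlapped, at 10.2 and 5.78 against 6.24 and 4.66 RPKM. Krt8 was higher, at 0.599 and 1.11 against 0.124 and 0.190 RPKM, and Krt5 was at most 0.166 RPKM. The 2 NK cell markers summed to 1.38 to 1.52 RPKM in DKO-labelled and 0.271 to 0.304 RPKM in OT-II libraries. The 2 regulatory T cell markers went the other way, at 5.33 to 8.58 RPKM in DKO-labelled and 14.2 to 16.9 RPKM in OT-II libraries, with Foxp3 at 0.092 and 0.077 against 1.90 and 3.31 RPKM. The sum of the 5 myeloid markers was likewise lower, at 4.42 to 5.52 against 10.3 to 20.9 RPKM. Of these, Lyz2 alone was lower without overlap, at 2.12 and 2.83 against 18.7 and 8.44 RPKM. Csf1r, Zbtb46 and Itgax were higher in DKO-labelled libraries, at up to 0.777 RPKM, and Itgam overlapped. The sums of the B cell, CD8 lineage and erythroid markers overlapped between these groups. The part of these cells and of the sensory receptor reads in the results was not tested.

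Of 44 other genes of the pathway, 38 were tested. Between hosts, 0 were called in either genotype, against 1.23% of all genes for OT-II and 1.68% for DKO-labelled cells. By the adjusted p alone 1 of 38 (2.63%) passed in each, against 1.89% and 3.35%, so these counts were near the background. Camk2d, a calmodulin-dependent kinase, rose in OT-II cells (0.69, SE 0.13, adjusted p = 0.030), and Saraf, which restrains store-operated calcium entry, fell by 0.44 in DKO-labelled cells (SE 0.08, adjusted p = 0.023). Camk2d was 2.87 and 2.65 RPKM in WT hosts and 4.80 and 4.69 RPKM in RIPmOVA hosts in OT-II cells, with no overlap. Between genotypes in RIPmOVA hosts, Homer3, a scaffold protein, was called lower (-1.06, SE 0.19, adjusted p = 0.025), at 3.56 ± 0.01 RPKM for OT-II and 1.46 ± 0.06 RPKM for DKO-labelled cells (SD, n = 2 each), against 0.562% of all genes called lower there. Over the 38 genes the median host difference was 0.01 for OT-II and -0.06 for DKO-labelled cells.

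The closest relatives of the 9 genes were not called in any comparison. Ppp3cc, another catalytic subunit, was 6.71 to 13.7 RPKM, and Ppp3r1, the regulatory subunit of calcineurin, was 42.3 to 60.2 RPKM. Orai2, a further channel subunit, was 13.7 to 16.2 RPKM in WT hosts and 9.76 to 13.1 RPKM in RIPmOVA hosts with no overlap between hosts. Stim2, Orai3 and Rcan3 were tested too, and Nfatc4 and Rcan2, at no more than 0.110 and 0.028 RPKM, did not pass the filter.

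Among 15 genes known to be induced through NFAT in T cells, of which 14 were tested, several were discussed by the study on these samples and are not independent evidence. Between hosts, 4 were called higher in OT-II cells, against 1.05% of all genes, and 7 in DKO-labelled cells, against 1.52%. Those called in both were Nr4a2, Bhlhe40, Tnfrsf9 and Tnfrsf4, and Ctla4, Lag3 and Cblb were called in DKO-labelled cells. In OT-II cells Cblb passed the adjusted p and missed only the fold limit (0.95, SE 0.19, adjusted p = 0.045). The interaction called 0 of the 14, against 0.0173% of all genes, with 5 at an unadjusted p below 0.05, against 9.32%. Nr4a2, a nuclear receptor related to the deleted genes, was higher by 3.13 (SE 0.36, adjusted p = 0.0035) in OT-II and by 3.93 (SE 0.33, adjusted p = 0.0005) in DKO-labelled cells. Tnfrsf9, a costimulatory receptor, was 111 and 90.5 RPKM in OT-II and 12.2 and 5.84 RPKM in DKO-labelled cells from RIPmOVA hosts. This was a called difference of -3.49 (SE 0.34, adjusted p = 0.0019). Tnfrsf9 was the 1 gene of the 14 called between these genotypes, against 1.07% of all genes. Over the 14 genes the median host difference was 0.94 for OT-II and 1.00 for DKO-labelled cells.

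**Figure D5:**
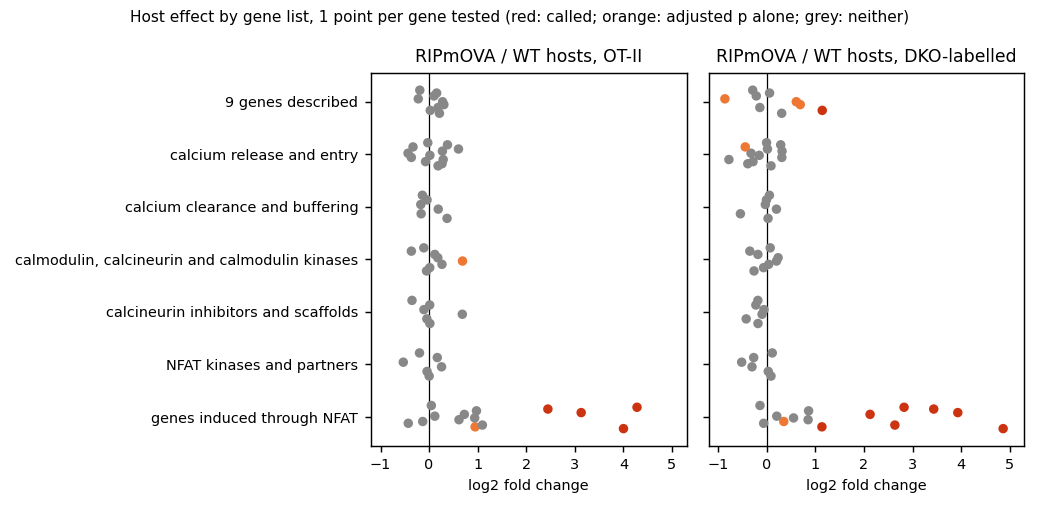
Log2 fold change between RIPmOVA and WT hosts (horizontal axis) in OT-II cells (left) and DKO-labelled cells (right), 1 point per gene tested, by list; red marks called genes and orange those with an adjusted p of 0.05 or less that were not called. The 14 NFAT-induced genes hold 4 and 7 called genes and the 38 other pathway genes 0 in both panels, where 1.23% and 1.68% of all genes were called.

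The genes with the pattern most like Nfatc1, by the root mean square difference of centred log2 values over 9 libraries, were Rilpl2 (0.09), Rnf19a (0.12) and Nefh (0.16). Rilpl2 was 12.3 to 14.2 RPKM in 7 libraries and 34.8 and 22.5 RPKM in DKO-labelled cells from RIPmOVA hosts. For Rcan1 they were Cdc16 (0.06), Zfp82 (0.06) and Acot8 (0.07), all 3 highest in the first OT-II library from RIPmOVA hosts. Counting without stated use of strand leaves the values of overlapping genes uncertain: GENCODE vM21 places other entries over Nfatc1, Nfatc3, Rcan1, Ppp3ca, Ppp3cb, Orai1 and Stim1, and 0 over Nfatc2 and Nfat5.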

How the data were processed

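According to the study's methods, the authors prepared cDNA with a SMART-seq kit, aligned paired reads to mm10 with STAR, removed duplicates and summed exonic reads per gene (GENCODE vM17). From these sums the authors computed the deposited RPKM, scaled to exon length and exonic reads. STAR's version and the use of strand were not given in the sources used here. The authors tested differences with DESeq2. All value columns of the table belonged to a sample.

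From the RPKM, log2(RPKM + 0.5) was fitted as group means over 9 libraries with limma 3.58.1 in R 4.3.3 (eBayes with trend, two-sided, Benjamini-Hochberg). Each RPKM step is 1 read, from which depth was recovered, and 100% of low values tested then came out whole within 0.1 read. The floor of 3 reads was 0.12 to 0.193 RPKM per kilobase, for counting error only. The model was tested on simulated data with planted shifts larger than the differences reported for the 9 genes. Detection of differences of their size, or under uneven sensory receptor reads, was not tested. No pair of libraries agreed within sampling noise. Libraries of a group came from separate chimeras.

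Same-numbered libraries of a host share a chimera by their labels. Their deviations from group means correlated at 0.01 and -0.24 in WT hosts and -0.08 in RIPmOVA hosts.

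The 9 genes and the lists were chosen with earlier results of these data known. Named besides them were listed genes past the adjusted p in any comparison, their family members, and the 3 genes most alike to Nfatc1 and Rcan1. Trbc1, Trbc2 and Hba-a2, listed as markers, had no matching entry. Gene coordinates come from GENCODE vM21 (GRCm38, the build mm10 names). Alternatives were other pseudocounts (0.1 and 1), a filter at RPKM 5 or none, quantile and median-of-ratios scaling, a fit to the compared libraries, no trend, adjusted p alone, a sensory receptor covariate, replicate blocks and leaving out each library. Added after the data were seen were voom on recovered reads, a crossed pairing of chimeras, and leaving out the 2 WT-host libraries with over 1000 sensory receptor RPM. Python 3.11.15 with numpy 2.4.6, pandas 2.3.3 and matplotlib 3.10.9 was also used.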

Additional observations from a re-analysis of the deposited data

How the results depend on the processing

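Of the 9 genes, the number called was 0 to 1 without each single library between hosts in DKO-labelled cells, between genotypes in RIPmOVA hosts and for the interaction. It was 0 without the first DKO-labelled library from RIPmOVA hosts in the former 2, where Nfatc1 fell below the fold limit. It was also 0 without the first OT-II library from RIPmOVA hosts between genotypes, and it stayed at 1 without the second because Ppp3ca was then called (-1.07, adjusted p = 0.049) and Nfatc1 was not. Without the second DKO-labelled library from RIPmOVA hosts Nfatc1 was called for the interaction (1.38, adjusted p = 0.025). With the sensory receptor covariate 0 were called between genotypes in RIPmOVA hosts. In the fit without that covariate, 4 passed by the adjusted p alone between hosts in DKO-labelled cells and 2 between genotypes in RIPmOVA hosts. The cause of these shifts was not tested.

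With the chimera as a replicate block, Nfatc1 was 1.12 between genotypes in RIPmOVA hosts (adjusted p = 0.030), and the block changed no call of the 9 genes. With the replicate number across hosts as a block, which only shares a number, the adjusted p was missed by Ppp3ca (-0.84, adjusted p = 0.072), Orai1 (0.63, adjusted p = 0.085) and Nfatc3 (0.60, adjusted p = 0.13) between hosts in DKO-labelled cells. Crossing the chimera numbers in WT hosts gave 1 called gene of all genes between genotypes there. Over all alternatives, the number of all genes called was 31 to 296 between hosts in OT-II and 87 to 565 in DKO-labelled cells, 18 to 585 between genotypes in RIPmOVA hosts, 1 to 100 between those in WT hosts, and 0 to 159 for the interaction, against 142, 194, 124, 7 and 2. The highest in DKO-labelled cells and between genotypes in RIPmOVA hosts came with the 2 WT-host libraries left out. These take no part in the genotype comparison of RIPmOVA hosts, so that its differences stay fixed and the pooled spread alone moves.

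Every change of sign concerned a difference that had not passed the test. With the sensory receptor covariate, the log2 fold change changed sign between hosts in OT-II cells for Nfatc1 (-0.0112), and between hosts in DKO-labelled cells for Nfatc2 (0.00978) and Rcan1 (-0.0523), and between genotypes in WT hosts for Nfatc1 (-0.00629), and for the interaction for Nfat5 (-0.21) and Stim1 (0.0462). With quantile normalization, the log2 fold change changed sign between hosts in DKO-labelled cells for Nfat5 (-0.0564) and Rcan1 (-0.14), and between genotypes in RIPmOVA hosts for Nfatc2 (-0.0519), and for the interaction for Nfat5 (-0.27). With median-of-ratios scaling, the log2 fold change changed sign between genotypes in RIPmOVA hosts for Nfatc2 (-0.028). With voom on recovered reads, the log2 fold change changed sign between genotypes in RIPmOVA hosts for Nfatc2 (-0.00299). With the 2 WT-host libraries of most background left out, the log2 fold change changed sign between hosts in OT-II cells for Nfatc2 (-0.34) and Ppp3cb (-0.18), and between hosts in DKO-labelled cells for Nfatc2 (0.0289), and between genotypes in WT hosts for Nfatc2 (-0.36), Nfatc3 (-0.23), Rcan1 (-0.0341), Ppp3cb (-0.20) and Stim1 (-0.13), and for the interaction for Nfatc2 (0.37), Ppp3cb (0.00323) and Stim1 (0.21). Leaving out single libraries changed the sign between hosts in OT-II cells for Nfatc1 (-0.0353 to 0.0833), Nfatc2 (-0.34 to 0.71), Rcan1 (-0.0484 to 0.36), Ppp3cb (-0.18 to 0.38) and Stim1 (-0.44 to 0.0605), between hosts in DKO-labelled cells for Nfatc2 (-0.24 to 0.0289), between genotypes in RIPmOVA hosts for Nfatc2 (-0.16 to 0.18), Nfat5 (-0.17 to 0.0913), Rcan1 (-0.29 to 0.12) and Stim1 (-0.0253 to 0.19), between genotypes in WT hosts for Nfatc1 (-0.0526 to 0.066), Nfatc2 (-0.18 to 0.86), Nfatc3 (-0.16 to 0.35), Rcan1 (-0.00952 to 0.0589), Ppp3cb (-0.16 to 0.39), Orai1 (-0.19 to 0.0668) and Stim1 (-0.0673 to 0.44), and for the interaction for Nfatc2 (-0.85 to 0.19), Nfat5 (-0.038 to 0.22), Rcan1 (-0.30 to 0.10) and Stim1 (-0.35 to 0.15). How small a difference could be detected with 2 or 3 libraries a group was not tested.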
